A study of Mus musculus with 14 samples.

Results

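Zinc finger protein (Zfp) genes that lie in clusters were examined in a list of regions marked by trimethylated lysine 4 of histone H3 (H3K4me3) in immortalised mouse embryo fibroblasts (iMEF). The members were the protein-coding genes of chromosomes 1 to 19 whose symbol is Zfp followed by a number and that have at least 2 other such genes with a transcription start site (TSS) within 500 kb. Zfp42 and Zfp503 were left out by the rule. This gave 217 members in 31 clusters, out of 356 Zfp genes and 20807 protein-coding genes on these chromosomes, and left 139 unclustered Zfp genes. At the edge of the rule, the second nearest Zfp neighbour of Zfp574 lay 484926 bp away, which made it a member, and that of Zfp775 lay 515470 bp away, which did not.

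Most members encode proteins with a row of C2H2 zinc fingers, each of which can contact a few bases of DNA, and many also carry a Krüppel-associated box (KRAB) at the N-terminus. The KRAB domain binds TRIM28 (KAP1), which brings the H3K9 methyltransferase SETDB1, HP1 proteins and DNA methylation to the bound site. Many KRAB zinc finger proteins repress transposable elements, and their genes arose by repeated local duplication, so that neighbours in a cluster are often close copies. H3K4me3 is the mark of active and poised promoters, and it is laid down by KMT2 complexes, of which ASH2L is a core subunit.

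The cells carried floxed Ash2l alleles that had been deleted by an inducible Cre-ER recombinase, and they depended on a lentiviral fusion of FKBP12F36V with human ASH2L. In all groups, treated or not, this fusion was the only ASH2L, and the study worked with clonal lines, mainly NG3. The labels describe 12 H3K4me3 libraries in 6 groups of 2 replicates, namely cells with no dTAG treatment and cells treated with dTAG for 30 min, 2 h, 4 h, 8 h or 16 h, and 2 input libraries. dTAG tethers the fusion to an E3 ligase and leads to its degradation. The peak list pools the calls of all samples and gives positions only, so that no level, depth, replicate error or change with time could be computed. A peak means that the region was called in at least some of these libraries, which may include treated ones. The values below compare genes within this one list, genes are not replicates of a condition, and no test was applied. The intervals are 95% Wilson intervals for shares and binomial order-statistic intervals for medians, and they cover only the number of genes.

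Marker genes fixed for the cell type fitted the label. All 9 fibroblast genes had a peak, with a median width of 2598 bp, as had 2 of 4 epithelial, 1 of 3 haematopoietic, 1 of 3 endothelial and 0 of 2 pluripotency genes.

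The promoters that the results turn on are shown first, as the 250 bases before the RefSeq start in build GRCm38.p6, 5′ to 3′ on the strand of the gene, with CpG dinucleotides in capitals. Zfp160 had the widest peak of the largest cluster, Zfp335 the widest of a member with C2H2 fingers, Zfp879 the narrowest of any member, and Zfp120 was the first member by position with a peak and no CpG island.
Zfp160, chr17:21008691-21008940, plus strand: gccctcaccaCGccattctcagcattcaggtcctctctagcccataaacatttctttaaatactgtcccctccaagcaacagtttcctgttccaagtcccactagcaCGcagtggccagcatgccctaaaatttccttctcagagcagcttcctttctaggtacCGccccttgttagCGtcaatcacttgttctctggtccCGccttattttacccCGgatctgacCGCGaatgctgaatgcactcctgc
Zfp335, chr2:164911751-164912000, minus strand: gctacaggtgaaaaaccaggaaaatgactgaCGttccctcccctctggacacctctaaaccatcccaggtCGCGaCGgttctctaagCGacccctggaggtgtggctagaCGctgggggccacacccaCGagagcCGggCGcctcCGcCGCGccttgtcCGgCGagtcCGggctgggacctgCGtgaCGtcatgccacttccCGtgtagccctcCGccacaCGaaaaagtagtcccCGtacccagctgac
Zfp879, chr11:50841553-50841802, minus strand: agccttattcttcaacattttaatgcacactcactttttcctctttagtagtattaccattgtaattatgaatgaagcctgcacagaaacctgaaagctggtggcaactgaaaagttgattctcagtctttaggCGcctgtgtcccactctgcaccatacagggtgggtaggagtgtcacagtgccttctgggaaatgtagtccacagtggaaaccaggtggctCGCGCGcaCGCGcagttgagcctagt
Zfp120, chr2:150136679-150136928, minus strand: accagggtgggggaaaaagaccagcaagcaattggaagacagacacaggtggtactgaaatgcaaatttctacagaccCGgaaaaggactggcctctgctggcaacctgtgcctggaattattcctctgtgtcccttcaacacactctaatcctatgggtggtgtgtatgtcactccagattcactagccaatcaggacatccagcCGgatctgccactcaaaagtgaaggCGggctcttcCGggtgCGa
The stretch of Zfp335 held 21 CpGs and that of Zfp160 held 8, and each lay wholly under a peak. The stretch of Zfp120 held 5 CpGs, with 165 of its bases under a peak. That of Zfp879 held 6 CpGs and lay outside its peak. The median over 15703 coding genes with a RefSeq promoter was 11 CpGs.

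A peak with any base within 1 kb of a TSS was found at 185 of 217 members (85.3%, interval 79.9 to 89.4%). Among all autosomal protein-coding genes the share was 60.3%, which is 12545 of 20807 genes. Of the unclustered Zfp genes, 122 of 139 had a peak (87.8%, interval 81.3 to 92.2%), so that the intervals of clustered and unclustered Zfp genes overlapped. For the other protein-coding genes inside the cluster spans, the intervals lay below that of the members. Of 40 such genes with at least 3 C2H2 fingers, 22 had a peak (55%, interval 39.8 to 69.3%). Of 184 with fewer fingers, 97 had a peak (52.7%, interval 45.5 to 59.8%). The 40 genes are in part of the same family, left out by symbol alone, such as Zfp607a, Zfp780b and Zfp729a, which carry a KRAB box. The starts of the 40 genes are harder to place, as measured by 75-base windows of their sequence. In 10 of the 40 genes (25%) under 50% of these windows occurred once in the genome's chromosomes, against 8.29% of members. Of the 6 with 99% or more, 5 were marked (83.3%, interval 43.6 to 97%), an interval that overlapped that of the members; the part of window uniqueness in the comparison was not tested. The widest peak of a member held an annotated TSS in 176 of 185 members (95.1%), a share not computed over all genes. There was 1 peak at 126 members, 2 at 46 and 3 at 13. Thus 31.9% of marked members had 2 or more peaks, against 41.8% of marked unclustered Zfp genes and 40.4% of all marked genes. In all, 251 distinct peaks served the 185 marked members, and 6 of these peaks were shared by 2 members or more. Of the peaks, 22 also lay within 1 kb of a TSS of a coding gene that is no member.

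**Figure D1:**
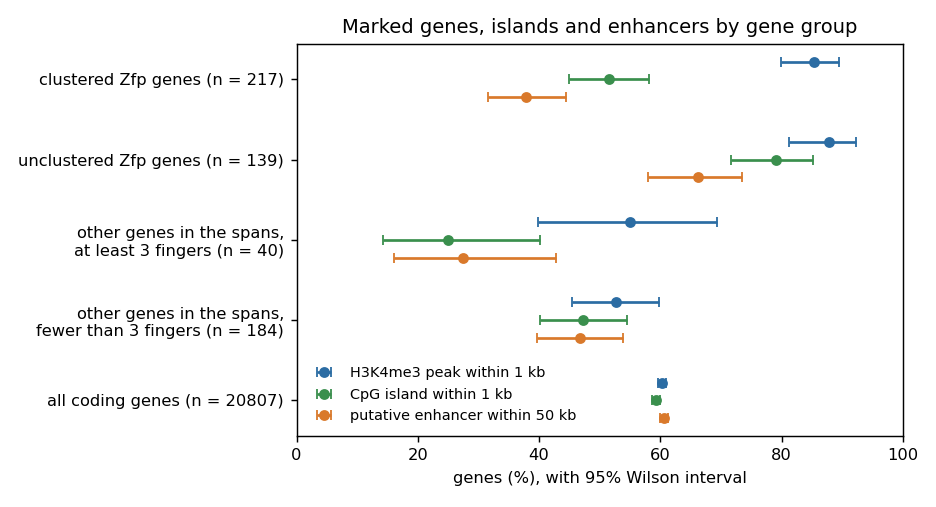
Share of genes (%) with an H3K4me3 peak within 1 kb of a TSS, with a CpG island within 1 kb and with a putative enhancer within 50 kb, for 5 gene groups. Points are shares and bars are 95% Wilson intervals. The clustered Zfp genes lie far above all coding genes for peaks (85.3% against 60.3%) and below them for enhancers (37.8% against 60.6%).

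The marked and unmarked members were unevenly spread over the genome. In 19 of 31 clusters every member had a peak, which accounts for 141 members, and in 1 cluster none had. The 9 clusters on chromosome 7 held 76 members. The largest cluster, 23 genes from Zfp160 to Zfp13 on chromosome 17 (chr17:21008903-23599487), was marked at all 23 genes, with widest peaks of 420 to 1657 bp and a median of 942 bp. The cluster of 19 genes around Zfp708 on chromosome 13 (chr13:67038596-67827002) was marked at all 19, with 548 to 1182 bp and a median of 835 bp. Zfp708, which binds a class of retroviral long terminal repeats and is known from work on the early embryo, had a peak of 983 bp in this cluster. Also fully marked were the 15 genes around Zfp568 on chromosome 7 (chr7:29768552-30169750), with a median of 902 bp, and the 11 genes from Zfp871 to Zfp414 on chromosome 17 (chr17:32765496-33631779), with a median of 1198 bp. Zfp568, a repressor of a placental Igf2 transcript, had a peak of 1692 bp. Zfp809, which silences retroviruses through their primer binding site, lay in a cluster of 5 marked genes on chromosome 9, with a peak of 1467 bp.

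The cluster on chromosome 4 (chr4:145510759-147848366) differed from these. Of its 18 members only Zfp991, Zfp984 and Zfp933 had a peak, of 231, 942 and 1005 bp, and the other 15 had none. Without this cluster, 182 of 199 members were marked (91.5%). The 4 members of the chromosome 2 cluster at chr2:175372436-175931100, namely Zfp968, Zfp965, Zfp969 and Zfp966, had no peak, and the nearest peak lay 230 to 777 kb from their TSSs. These 19 genes made up most of the 32 unmarked members. The chromosome 4 span was not free of peaks: it held 38, but 29 of them (76.3%) lay beyond 1 kb of any annotated TSS, with a median width of 241 bp. In the other spans together 73 of 468 peaks (15.6%) lay that far out, and on chromosomes 1 to 19 the share was 6768 of 24501 (27.6%), with a median of 273 bp. Members of the chromosome 4 cluster are known as repressors of endogenous retroviruses in embryonic stem cells.

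**Figure D2:**
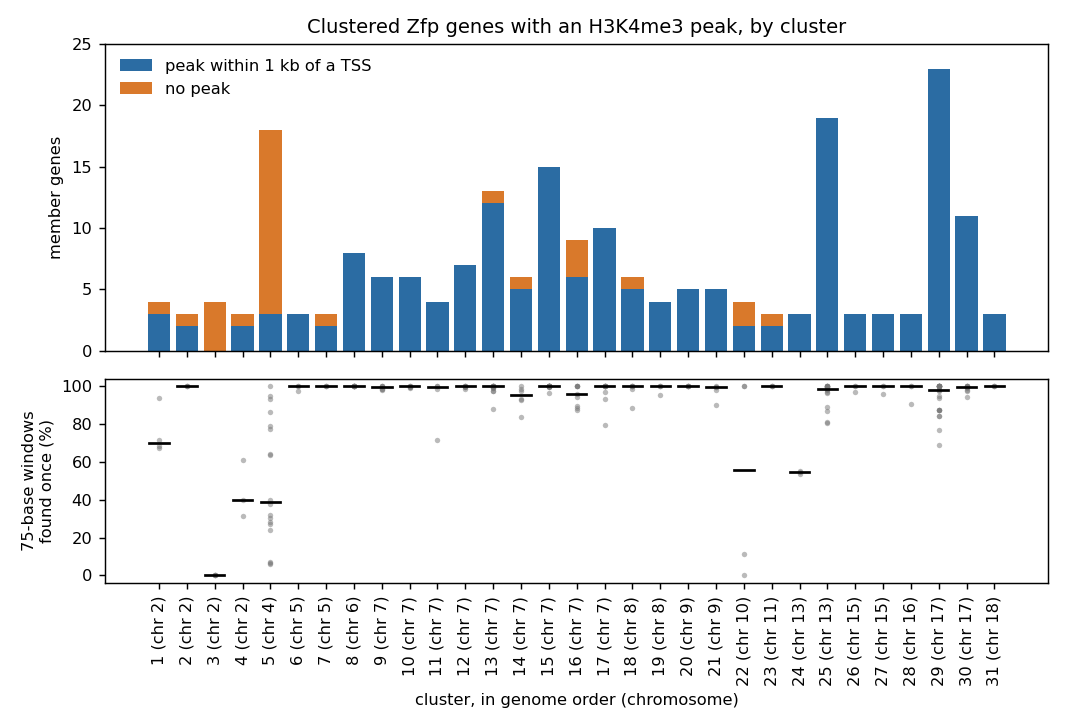
Upper panel, number of members with (blue) and without (orange) a peak in each of the 31 clusters in genome order. Lower panel, share of 75-base windows within 1 kb of the gene start that occur once on the chromosomes, with a point for each member and a line for the cluster median. The clusters with the most unmarked members, 5 on chromosome 4 and 3 on chromosome 2, have medians of 38.9% and 0%.

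Reads of the study were single-end of 75 cycles, and a read from a sequence with identical copies cannot be placed at 1 of them. The share of 75-base windows within 1 kb of the gene start that occur once on the chromosomes was therefore computed for every gene. Of 18 members with a share under 50%, 2 had a peak (11.1%, interval 3.1 to 32.8%). Most of these 18 lay in the chromosome 4 cluster and the chromosome 2 cluster without a peak. The interval counts close copies as separate genes, so this class largely repeats those clusters. Of 73 members with 50 to 99%, 62 had a peak (84.9%, interval 75 to 91.4%). Of 126 members with 99% or more, 121 had a peak (96%, interval 91 to 98.3%). Over all coding genes the shares marked in these classes were 7.35%, 44.5% and 66.5%. The 2 marked members of the lowest class were Zfp931, with a peak of 515 bp and 31.3% of its windows found once, and Zfp991, with 231 bp and 27.3%.

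Among the 15 unmarked members on chromosome 4 the share of windows found once ran from 6.02 to 94.6%, with a median of 37.9%. When the unplaced, alternate and patch sequences of the assembly were counted too, it ran from 0 to 85.2%, with a median of 21.8%. The authors state that unusable reads were removed following ENCODE guidance, with GRCm38.p6 as reference. The treatment of reads with several matches and the sequences in the index were not spelled out in the sources used here. Which figure applies therefore cannot be said. The ratio of observed to expected CpGs in the 1001 bases at the gene start was also low in these 15 genes, from 0.115 to 0.3, against a median of 0.587 in the marked members. The part that read placement, CpG content and the state of the genes each had in the missing peaks was not tested. Zfp433 and Zfp781 on chromosome 10, which have a CpG island, had shares of 11.1% and 0% and no peak.

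The near identity of these starts is visible in the bases before Zfp965 and Zfp966, printed over the 236 bases that align without a gap, with the single differing base in capitals.
Zfp965, chr2:175469775-175470010, plus strand: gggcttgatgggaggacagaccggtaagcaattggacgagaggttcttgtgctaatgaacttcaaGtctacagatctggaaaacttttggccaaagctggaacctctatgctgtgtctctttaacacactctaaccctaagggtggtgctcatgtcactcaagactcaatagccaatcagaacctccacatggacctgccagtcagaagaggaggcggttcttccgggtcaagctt
Zfp966, chr2:175931101-175931336, minus strand: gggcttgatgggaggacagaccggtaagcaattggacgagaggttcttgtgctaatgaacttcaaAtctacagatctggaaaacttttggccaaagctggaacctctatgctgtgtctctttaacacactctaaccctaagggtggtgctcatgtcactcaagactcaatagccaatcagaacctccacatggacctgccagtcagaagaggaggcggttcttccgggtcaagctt
Zfp968 and Zfp966 were identical over 224 bases. Over the 185 members with a RefSeq promoter, 31 had a cluster mate with at least 80% of aligned bases identical, and 18 of these were marked. Of the other 154, 142 were marked. A high identity did not always go with a missing peak: Zfp942 and Zfp944, in the chromosome 17 cluster, differed at 1 of 225 bases and each had a peak. At their starts 87.4% of windows were found once, against 0% for Zfp965 and Zfp966, so the pairs are not alike in this. The peak of Zfp942 also served Zfp943, and that of Zfp944 also served Zfp758.

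Only 5 unmarked members had 99% or more of their windows found once, namely Zfp663, Zfp853, Zfp575, Zfp819 and Zfp454. Their nearest peaks lay 18.7, 20.4, 5.95, 26 and 13.9 kb from a TSS. Zfp663, Zfp853 and Zfp575 had a CpG island, and their CpG ratios were 0.529, 0.583 and 0.457. In 2 further unmarked members, Zfp626 and Zfp869, a RefSeq start outside the GENCODE set had a peak within 1 kb, of 1350 and 697 bp. With RefSeq starts added, 187 members were marked (86.2%).

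**Figure D3:**
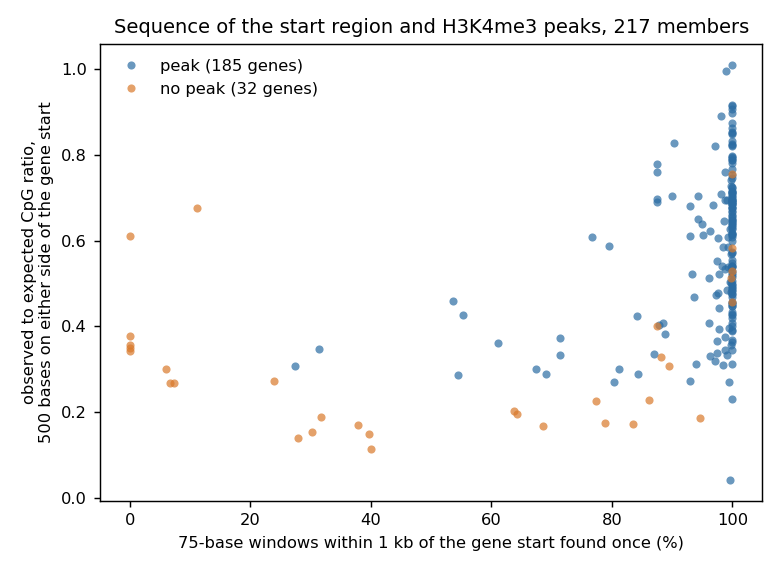
Each point is a member, blue with a peak (185 genes) and orange without (32 genes). The x axis is the share of 75-base windows near the gene start found once on the chromosomes (%), and the y axis the observed to expected CpG ratio of the 1001 bases at the gene start. Points with under 50% of windows found once are orange but for 2.

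CpG islands are stretches of DNA with many unmethylated CpGs, to which KMT2 complexes can be recruited. An island within 1 kb of a TSS was found at 112 of 217 members (51.6%, interval 45 to 58.2%), at 110 of 139 unclustered Zfp genes (79.1%, interval 71.6 to 85.1%) and at 59.3% of all autosomal coding genes. Members with an island were marked in 107 of 112 cases (95.5%), close to the 90.2% over all genes with an island. Of 105 members without an island, 78 had a peak (74.3%, interval 65.2 to 81.7%), against 1420 of 8468 coding genes without an island (16.8%). The same was seen in unclustered Zfp genes with a KRAB box. Of these, 12 of 17 without an island were marked (70.6%, interval 46.9 to 86.7%), beside 74 of 101 members with a KRAB box and no island (73.3%, interval 63.9 to 80.9%). Of 12 unclustered Zfp genes with neither, 3 were marked (25%, interval 8.89 to 53.2%). A high share without an island was thus not particular to clustered genes.

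The distance to all coding genes was as large where reads can be placed. Among genes with 99% or more of their windows found once and no island, 42 of 44 members were marked (95.5%, interval 84.9 to 98.7%), as were 8 of 17 unclustered Zfp genes (47.1%, interval 26.2 to 69%) and 1155 of 5576 coding genes (20.7%, interval 19.7 to 21.8%). Of those 17 unclustered genes, 6 of 7 with a KRAB box were marked (85.7%, interval 48.7 to 97.4%) and 2 of 10 without one (20%, interval 5.67 to 51%). The members with a KRAB box stood at 38 of 40 (95%, interval 83.5 to 98.6%). By position, the first 8 marked members without an island were Zfp120, Zfp937, Zfp442, Zfp971, Zfp931, Zfp991, Zfp984 and Zfp933, with widest peaks of 231 to 1322 bp. In the chromosome 13 cluster 3 of 19 marked members had an island, and in the largest cluster 6 of 23. The promoters of the island-free marked members were not free of CpGs. Over the 68 with a RefSeq promoter, the 250 bases before the start held a median of 7 CpGs, against 9 in all marked members and 4 in unmarked members.

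Peaks at members were narrow. The widest promoter peak had a median of 991 bp over the 185 marked members (interval 928 to 1073 bp, quartiles 767 and 1364 bp). Unclustered Zfp genes had a median of 1268 bp (interval 1166 to 1392 bp) and all marked coding genes one of 1264 bp (interval 1250 to 1278 bp). Other marked genes inside the spans had 860 bp with at least 3 fingers (interval 780 to 1152 bp, 22 genes). Those with fewer fingers had 1128 bp (interval 992 to 1190 bp, 97 genes). Both intervals overlapped that of the members, so narrow peaks were not particular to the members within the spans. A width of at least 2000 bp was reached by 7.03% of marked members, 21.3% of marked unclustered Zfp genes and 16.3% of all marked genes.

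The widest peak belonged to Zfp36, at 2797 bp. Zfp36 encodes tristetraprolin, a CCCH protein that promotes decay of AU-rich mRNAs; it is no C2H2 protein and entered through its symbol. It was followed by Zfp335, whose promoter is printed above, at 2737 bp. Zfp668 and Zfp646, which lie on opposite strands with overlapping 5′ ends, shared a peak of 2647 bp. Zfp553 had 2509 bp, in a peak that also lay within 1 kb of a TSS of Sept1. All 5 had a CpG island and no KRAB box. The narrowest were Zfp879 at 228 bp, Zfp991 at 231 bp, Zfp963 at 309 bp, Zfp93 at 407 bp and Zfp114 at 416 bp. All 5 of these had a KRAB box, and Zfp963 alone among them had an island.

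Proteins were translated from the annotated coding sequences and searched for the C2H2 and KRAB patterns. At least 3 fingers were found in 209 members, with a median of 11 and up to 27 in Zfp646. A KRAB box was found in 174 members (80.2%) and in 41 unclustered Zfp genes (29.5%). The same KRAB pattern was met in 2.3% of coding genes without any finger. Within each KRAB class, the intervals of the clustered and the unclustered genes overlapped. Marked members with a KRAB box had a median of 963.5 bp (interval 878 to 1035 bp, 144 genes), and unclustered Zfp genes with one had 941.5 bp (interval 843 to 1091 bp, 36 genes). Without a KRAB box the medians were 1355 bp (interval 991 to 1946 bp, 41 genes) and 1490.5 bp (interval 1273 to 1711 bp, 86 genes). The share marked was 82.8% with and 95.3% without a KRAB box among members, and 87.8% in either class of unclustered Zfp genes. All 18 members of the chromosome 4 cluster have a KRAB box. Among members with an island the shares were 95.9% with and 94.9% without a KRAB box. Among marked members with a KRAB box the median was 1092 bp (interval 983 to 1266 bp) with an island and 831.5 bp (interval 775 to 904 bp) without. In unclustered Zfp genes with a KRAB box the intervals overlapped, with medians of 934 bp (interval 686 to 1202 bp) with an island and 941.5 bp (interval 854 to 1129 bp) without. The number of fingers and the width were hardly related over the 185 marked members (Spearman's rho -0.081), and the CpG ratio and the width had a rho of 0.44, against 0.24 over 12545 marked genes. These correlations run across genes, which share clusters and base composition.

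**Figure D4:**
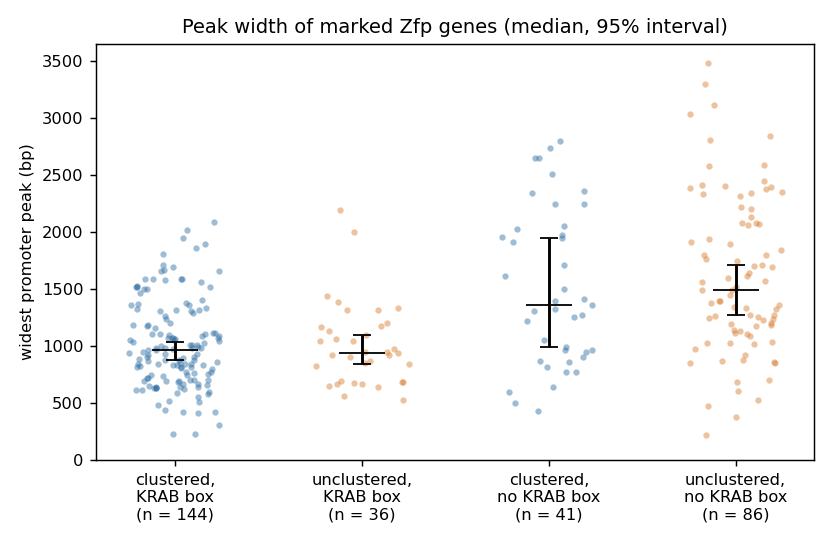
Widest promoter peak (bp) of each marked Zfp gene, by clustering and KRAB box. Black bars are medians with 95% intervals. The medians with a KRAB box are 963.5 and 941.5 bp, and those without are 1355 and 1490.5 bp.

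The shorter peaks of the members ended earlier on the transcribed side, and fewer members were covered further upstream. In 157 members the widest peak spanned the 5′ end of the gene, and it reached a median of 318 bp upstream and 717 bp downstream. In 88 unclustered Zfp genes the medians were 338 and 1040.5 bp, and in 8445 genes of all kinds they were 322 and 974 bp. At 1000 bp downstream of the gene start, 29.7% of marked members were covered by a peak, against 61.5% of marked unclustered Zfp genes and 50.3% of all marked genes. At 500 bp upstream the shares were 29.2% of marked members, 42.6% of marked unclustered Zfp genes and 40.2% of all marked genes. At the gene start itself the members had the highest coverage, 88.6% against 79.5% and 73.8%.

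**Figure D5:**
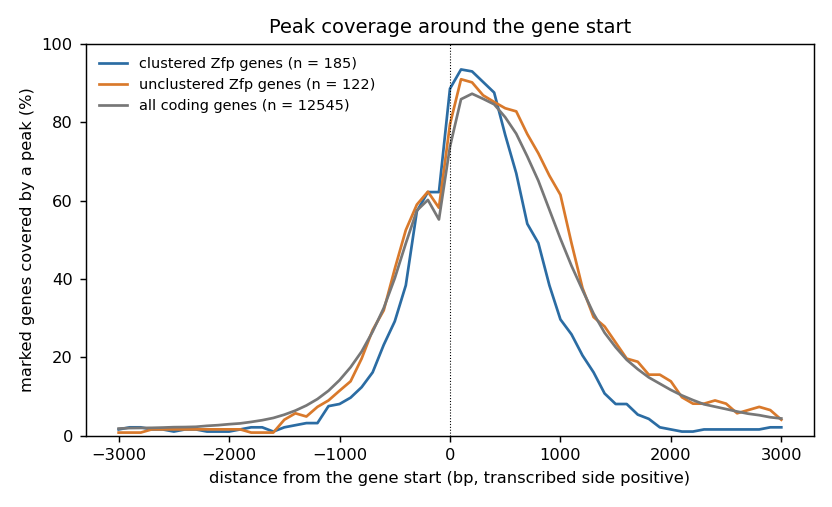
Share of marked genes (%) with a peak over each position from 3000 bp before to 3000 bp after the gene start, in steps of 100 bp, for clustered Zfp genes (185), unclustered Zfp genes (122) and all coding genes (12545). The curve of the clustered genes falls soonest on the transcribed side, to 29.7% at 1000 bp. It is also the lowest at 500 bp upstream, at 29.2%.

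Beyond promoters, 21 members had at least 1 peak inside the gene and over 1 kb from any annotated TSS, 27 peaks in all. Of these 27 peaks, 5 lay on the largest coding exon, which in this family usually encodes the zinc fingers. The same counts over all coding genes were not made, so both are a description and not a trait of the members. The 5 peaks on that exon were at Zfp771, with 2 peaks, and at Zfp810, Zfp263 and Zfp113. Zfp981 on chromosome 4, which had no peak within 1 kb of a TSS, had 4 such peaks elsewhere in the gene. The peak nearest to a TSS of Zfp981 lay 1.01 kb away, just outside the window. Of the windows at the start of Zfp981, 77.4% were found once.

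The authors called putative enhancers where untreated cells had open chromatin with H3K27ac and H3K4me1, leaving out overlaps with 1 kb around known TSSs. Such enhancers were few near the members. At least 1 lay within 50 kb of a TSS of 82 members (37.8%, interval 31.6 to 44.4%), of 92 unclustered Zfp genes (66.2%, interval 58 to 73.5%) and of 60.6% of all autosomal coding genes. The median distance from a TSS to the nearest enhancer was 72.4 kb for members, 22.9 kb for unclustered Zfp genes and 31.5 kb for all genes. The spans of the 31 clusters covered 17.18 Mb and held 506 peaks and 83 enhancers. That is 29.5 peaks and 4.83 enhancers per Mb, against 9.95 and 13.2 per Mb on chromosomes 1 to 19. Coding genes stood at 25.7 per Mb in the spans and 8.45 per Mb on chromosomes 1 to 19. The spans were thus rich in genes and peaks and poor in listed enhancers. The authors left out sequence near known TSSs, but the list still held enhancers at TSSs of the annotation used here, as at Zfp467 and Zfp65. Without enhancers within 1 kb of such TSSs, 27.2% of members and 55.7% of all genes had an enhancer within 50 kb. The part of the authors' exclusion in the contrast was not tested. In 12 spans no enhancer was listed, the chromosome 4 span among them.

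Of the 82 members with an enhancer within 50 kb, 78 were marked, beside 185 of all 217 members (85.3%). The share marked among all coding genes with an enhancer was not computed, so the count is not read as a link. Most enhancers lay near Zfp53, with 8 within 50 kb, Zfp574, with 7, and Zfp51, with 5. Zfp36, Zfp553 and Zfp52 had 4 each. Zfp51, Zfp53 and Zfp52 are neighbours in the largest cluster and count some of the same enhancers. Their widest peaks were 814, 850 and 1109 bp, with the median of all marked members at 991 bp. Over all marked members the number of enhancers and the width had a rho of 0.12. Enhancer calls rest on aligned reads too: among members with 99% or more of windows found once, 47.6% had an enhancer within 50 kb, against 65.5% of such genes over all.

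The promoters were searched on both strands, in the 250 bases before the start, for short cores of known promoter elements. The 185 members with a RefSeq promoter were set beside 15703 coding genes, of which 9766 had a peak. The ETS core CGGAAG was held by 29.7% of members (interval 23.6 to 36.7%), 18.1% of all genes, 25.9% of marked genes and 28.4% of 109 unclustered Zfp genes (interval 20.8 to 37.5%). CCAAT was held by 51.4% of members (interval 44.2 to 58.5%), against 35.7% of all and 36.1% of marked genes, and by 44% of unclustered Zfp genes (interval 35.1 to 53.4%). For these 2 cores the intervals of clustered and unclustered Zfp genes overlapped. The Sp core GGGCGG was held by 34.1% of members (interval 27.6 to 41.1%), against 45% of all and 62.3% of marked genes, and by 49.5% of unclustered Zfp genes (interval 40.3 to 58.8%). The NRF1 core TGCGCA was held by 9.73% of members (interval 6.24 to 14.9%), against 8.55% of all and 12.3% of marked genes. For the YY1 core GCCATNTT the share was 7.57% (interval 4.56 to 12.3%), against 3.67% of all and 4.21% of marked genes. TATAAA was held by 3.78% of members (interval 1.84 to 7.6%), against 12% of all and 5.83% of marked genes. Unclustered Zfp genes stood at 4.59% for NRF1, 4.59% for YY1 and 8.26% for TATAAA. For NRF1 and TATAAA the share of marked genes lay inside the interval of the members. A low TATAAA share was thus not particular to the members. In the 25 unmarked members with a RefSeq promoter CCAAT was held by 80% (interval 60.9 to 91.1%), against 46.9% of 160 marked ones. These matches describe letters only, and close copies of 1 promoter count separately.

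All words of 9 bases were then counted, and the word with the largest count over that expected from all coding genes was AAATGTAGT (ACTACATTT on the other strand). It was held by 26 of 185 members (14.1%), in 7 clusters, against 0.993% of all coding genes. Of these 26 members 25 were marked, the exception being Zfp626. The word was chosen from these counts, so its share is a description. It is shown in capitals in the first member by position of each of the 7 clusters, on the strand that reads AAATGTAGT.
Zfp334, chr2:165388346-165388394, minus strand: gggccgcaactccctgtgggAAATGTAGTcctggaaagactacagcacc
Zfp444, chr7:6172263-6172309, plus strand: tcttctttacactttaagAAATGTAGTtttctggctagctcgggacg
Zfp112, chr7:24112154-24112202, plus strand: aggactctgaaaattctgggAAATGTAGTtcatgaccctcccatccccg
Zfp60, chr7:27731324-27731372, minus strand: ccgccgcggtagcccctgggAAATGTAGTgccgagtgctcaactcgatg
Zfp84, chr7:29768512-29768551, plus strand: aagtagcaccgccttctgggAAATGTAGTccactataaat
Zfp879, chr11:50841581-50841629, minus strand: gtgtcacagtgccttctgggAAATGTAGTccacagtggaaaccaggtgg
Zfp712, chr13:67061195-67061243, minus strand: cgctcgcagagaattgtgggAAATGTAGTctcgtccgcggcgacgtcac
The letters next to the word were also alike: in Zfp112, Zfp84 and Zfp879 the bases before it read ttctggg. The cluster around Zfp568 held 9 of these promoters and that around Zfp708 held 8. The peaks of the 7 genes shown ran from 228 bp at Zfp879 to 2240 bp at Zfp444.

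The partners through which KRAB proteins act were marked throughout. Of the 26 genes listed, 25 are annotated on the autosomes, and all 25 had a peak. Their widths were 361 to 2858 bp, with a median of 1447 bp. Beside them, 60.3% of all autosomal coding genes and 90.2% of those with a CpG island had a peak. The median over all marked coding genes was 1264 bp. A peak was thus not particular to this list. Trim28, the KRAB-binding corepressor, had 2858 bp. The widths were 1357 bp at Setdb1, which methylates H3K9, and 1233 bp at Dnmt1, the maintenance DNA methyltransferase. For the HP1 genes Cbx1, Cbx3 and Cbx5 the widths were 1503, 1382 and 864 bp. Atf7ip, a partner of SETDB1, had the narrowest, 361 bp.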

How the data were processed

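H3K4me3 ChIP-seq was performed by the authors in 12 libraries, with 2 inputs. Their steps were trimming (Trim Galore), alignment to mm10 (BWA, GRCm38.p6), filtering to ENCODE recommendations (samtools), merging of replicates (Picard) and narrow peak calling (MACS). Versions are not given in the sources used here. The deposited lists hold positions only, 25431 peaks and 32965 putative enhancers, with 0 columns of values per sample. Peak starts were read as counting from 0 and enhancer starts from 1, which their widths imply. The study's methods set a minimum read number in advance and scaled samples to the lowest coverage; the depth that each library reached is not in the lists. A low depth could lose weak or narrow peaks.

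TSSs were the transcript starts of GENCODE M21 on GRCm38.p6. The authors' annotation may differ. CpG islands (at least 200 bp, GC of 50%, observed to expected CpG ratio of 0.6) gave 15697 on the autosomes. Windows of 75 bases were counted over 22 chromosome sequences, and again with 217 other sequences. Promoters came from RefSeq. KRAB boxes were sought in the first 200 residues with up to 2 mismatches. Python 3.11.15, NumPy 2.4.6 and pysam 0.24.0 were used. The overlap, island and window code was tested on simulated data.

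The members and gene lists were chosen with earlier results of these data known. Genes were named by rule: members in the 3 largest clusters that were in the minority for having a peak, the 5 widest and 5 narrowest peaks, the 5 members with most enhancers, up to 8 members with a peak and no island or the reverse, genes of known function, and the KRAB partners. Unmarked members and other genes beyond this were named after their values were seen.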

Additional observations from a re-analysis of the deposited data

Results flagged for a closer look

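The comparisons used chromosomes 1 to 19. Outside them, 7 protein-coding Zfp genes lie on the X chromosome and were in no comparison. Of these, 6 had a peak within 1 kb of a TSS. The widths were 844 bp at Zfp182, 854 bp at Zfp185, 1121 bp at Zfp275, 955 bp at Zfp300, 826 bp at Zfp449 and 356 bp at Zfp711, with a median of 849 bp. Zfp92 had none.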

How the results depend on the processing

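Of the values computed under alternatives, 14 of 60 moved outside the interval of the value reported, or by over 1.5 times for the number of members. With peaks joined across gaps of up to 1 kb, the median width of members rose to 1168 bp, against 1688 bp for unclustered Zfp genes and 1639 bp for all genes. Stricter islands (at least 500 bp, with higher GC and CpG ratio limits) left 18.9% of members with an island, against 47.5 and 40.1%. Islands that hold a TSS left 43.3%, against 75.5 and 53.9%. An enhancer was found near 24.0% of members within 25 kb and 60.4% within 100 kb, against 44.8 and 76% of all genes. The share was 27.2% when enhancers within 1 kb of any TSS of the annotation used here were left out, against 55.7%. The following were chosen after seeing the data. Taking all coding genes with at least 3 fingers gave 351 members, with 75.5% marked and 43.9% with an island. The 126 members with 99% or more of windows found once were marked in 96.0%, with 65.1% having an island and 47.6% an enhancer. Without the cluster on chromosome 4, 91.5% were marked. In each case with values for all genes, members stayed on the same side of them as reported, though the island share of 65.1% lay close to the 65.5% of all genes with such starts. No paired analysis was possible because positions carry no value per sample, and no replicate could be left out for the same reason. No table of proteins was used here, so proteins were translated from the annotation.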
